A study of Arabidopsis thaliana with 33 samples.

Results

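Pericentromeric nucleosomes are described here in shoots of Arabidopsis thaliana. They are the deposited nucleosome positions whose centre lies at 12.5 to 17.5 Mb of chromosome 1, 1.5 to 6 Mb of chromosome 2, 11 to 16.5 Mb of chromosome 3, 2 to 5.5 Mb of chromosome 4 or 9.5 to 14.5 Mb of chromosome 5 (TAIR10), and outside the deletions called in the arp6 genome. The rule used position and deletion calls, and no occupancy value. It kept 120295 of 703360 positions in the table of arp6 against wild type (WT), 120139 of 703699 in that of brm and 120196 of 704608 in that of arp6;brm, or 17.1% of the positions in each table. They were set against the chromosome arms, which held 558184, 558472 and 559405 positions outside deletion calls. The genotypes were the mutants arp6-1 and brm-1, their double mutant arp6-1;brm-1, and WT, which carries neither allele. Each gave 2 MNase-seq libraries, deposited as 1 pooled data set per genotype, and 3 libraries of nuclear RNA. Chromatin immunoprecipitation (ChIP) of the histone variant H2A.Z was made in 2 biological replicates of arp6, brm and WT, and none of the double mutant was analysed here. All of this material was the shoot of soil-grown plants at the stage of 4 to 5 leaves. The deletions came from genomic DNA of mature rosette leaves of 50 pooled arp6 plants, so a deletion call applies to that pool, and no genomic DNA of the other genotypes was analysed here.

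Pericentromeric heterochromatin flanks the centromeres. In Arabidopsis it is rich in transposable elements and poor in genes, and it carries DNA methylation, methylation of histone H3 on lysine 9 and the histone variant H2A.W. H2A.Z is kept out of methylated DNA and sits mainly at genes. The SWR1 complex, to which ARP6 belongs, exchanges H2A for H2A.Z. BRM (BRAHMA) is the motor of SWI/SNF complexes, which use ATP to slide or evict nucleosomes. MNase cuts the DNA between nucleosomes, so the depth of its fragments at a position gives occupancy, and the scatter of their centres gives the fuzziness score, which is low for a well placed nucleosome.

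The annotation fitted the name of the intervals. Outside deletion calls they held 84.2 protein-coding genes per Mb, against 270.7 per Mb in the arms, and 140.8 pseudogenes per Mb, against 13.7 per Mb in the arms. RefSeq lists many transposon remnants of Arabidopsis as pseudogenes, and the whole intervals held 68.1% of all of them and 6.93% of the protein-coding genes. Of the positions, 17.5% lay in a protein-coding gene, against 64.7% in the arms, 32.5% in a pseudogene, against 2.23% in the arms, and 50.0% in neither, against 33.1% in the arms. RNA of the targeted genes followed the labels. ARP6 lies in the interval of chromosome 3, outside deletion calls, and in the authors' deposited RNA tables its log2 fold change against WT was -5.73 in arp6 (adjusted p = 1.54e-44), 0.27 in brm (adjusted p = 0.545) and -5.60 in the double mutant (adjusted p = 8.2e-53). BRM, in an arm of chromosome 2, had -0.0091 in arp6 (adjusted p = 1.0), -5.64 in brm (adjusted p = 4.2e-94) and -8.87 in the double mutant (adjusted p = 2.41e-163) in the authors' deposited tables. Deletion calls covered 14.0% of the intervals, against 2.71% of the arms. Within the intervals they covered 16.1%, 23.1%, 2.87%, 2.68% and 23.9% on chromosomes 1 to 5.

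Nucleosomes were spaced in the pericentromeres nearly as in the arms. There were 5.95 positions per kb in the pericentromeres and 6.0 per kb in the arms, and the median distance between neighbouring WT summits was 160 bp in both, on the 10-bp grid of the deposited summits. The mean WT distance, over neighbours up to 300 bp apart, was 170.2 ± 45.5 bp in the pericentromeres and 169.6 ± 43.7 bp in the arms (SD over 114518 and 537504 distances), a difference far below the spread between neighbours. In the mutants the pericentromeric means were 165.5 bp in arp6, 165.5 bp in brm and 165.6 bp in arp6;brm, against 170.2 bp in WT. The arms gave 165.3, 165.3 and 165.0 bp, against 169.6 bp in WT. These means cannot be compared between mutant and WT. A mutant summit was given at every position. In the arp6 comparison, which gave the WT distances, no WT summit was given at 2.94% of pericentromeric and 2.61% of arm positions. WT distances thus skip positions, and whether spacing differs between genotypes was not tested. The compartments differed in interruptions, since 1.91% of neighbouring WT summits were more than 300 bp apart in the pericentromeres and 1.12% in the arms. Over the whole intervals, deletion calls included, the longest stretches without any position in the arp6 comparison lay on chromosomes 1 and 5. They were 55330 bp on chromosome 1, from 14749142 to 14804472, and 54490 bp on chromosome 5, from 14395292 to 14449782. The arms were not searched for such stretches. With 1 pooled data set per genotype, none of these nucleosome values has a replicate check.

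Pericentromeric nucleosomes were slightly more occupied in WT and less sharply placed. The median WT summit signal was 206 in the pericentromeres (quartiles 164 and 248) and 198 in the arms (quartiles 156 and 240), in the units of the authors' deposited tables. On single chromosomes it was 202 to 208 in the pericentromeres and 196 to 200 in the arms, so these ranges did not overlap. The excess over the arms was 8.0 within protein-coding genes and 8.0 in neither kind of gene, but 2.0 within pseudogenes. Within pseudogenes it was -2.0, -0.0044, 6.0, 2.0 and 6.0 on chromosomes 1 to 5. The median WT fuzziness score was 57.6 in the pericentromeres and 57.3 in the arms. It was 57.6 to 57.7 on single pericentromeres and 57.2 to 57.3 on single arms. The quartiles were 55.5 and 60.0 in the pericentromeres and 54.9 and 59.8 in the arms, so the whole distribution was shifted, and more so at its sharp end. By definition 10% of arm positions scored below 52.4, and of the pericentromeric positions 6.60% did. Within pseudogenes the shares below 52.4 were 4.63% in the pericentromeres and 9.09% in the arms, and within protein-coding genes they were 8.33% and 10%. The lower share of sharp nucleosomes was thus present at equal annotation.

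Fuzziness followed gene content inside the pericentromeres. In 47 windows of 0.5 Mb the share of positions in protein-coding genes ran from 1.17% to 50.1%, with the low values near the middle of each interval. Across these windows the median WT fuzziness had a Pearson r of -0.80 and a Spearman rho of -0.75 with that share. The windows share libraries and neighbour each other, so this is a description of 1 data set. Either side of the borders the change was gradual. In the 0.5 Mb just inside, 35.8% of positions lay in protein-coding genes and the median WT fuzziness was 57.43, and in the 0.5 Mb just outside these values were 41.2% and 57.37.

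**Figure D1:**
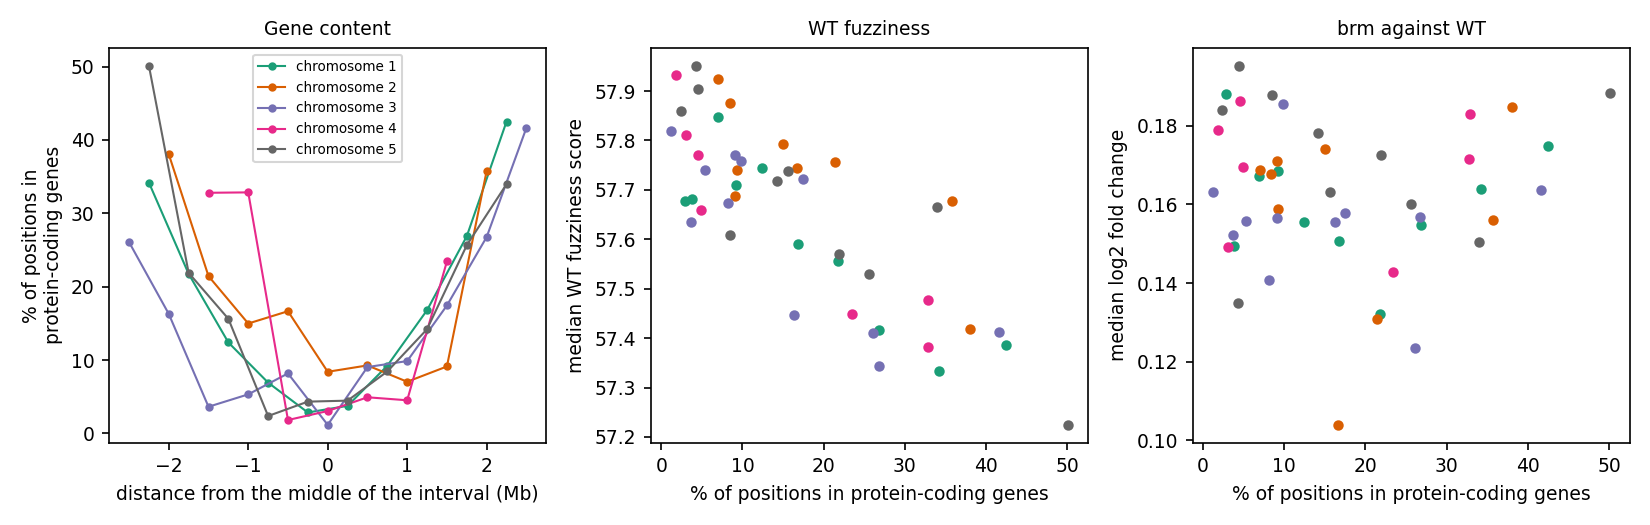
Windows of 0.5 Mb through the 5 intervals, coloured by chromosome. The left panel plots the share of positions in protein-coding genes (%) against the distance from the middle of the interval (Mb), the middle panel the median WT fuzziness score against that share, and the right panel the median log2 fold change of brm against WT against that share. Fuzziness is lower where genes are denser (r = -0.80 over 47 windows), and the brm values show no such slope (r = -0.021).

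Some pericentromeric positions carried signals far above the rest. A WT summit signal over 1000 was found at 638 positions in the table of arp6, or 0.530% of the pericentromeric positions, and at 19 arm positions. The highest WT summit reached 534859. Of the 638, 492 lay in 8 windows of 50 kb. The fullest was at 3950001 to 4000000 on chromosome 4 with 130 such positions, followed by 11700001 to 11750000 on chromosome 5 with 100 and 3600001 to 3650000 on chromosome 2 with 85. Whether reads map uniquely there was not tested. The median log2 fold change over these positions was 0.026 in arp6, 0.028 in brm and 0.066 in the double mutant, and 4 of them lay in a WT H2A.Z peak.

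H2A.Z peaks were sparse in the pericentromeres in every library. The 2 arp6 libraries had 17.0 and 29.8 pericentromeric peaks per Mb, against 31.4 and 36.2 per Mb in their arms. The 2 brm libraries had 40.7 and 37.4 per Mb, against 158 and 144 per Mb in their arms. The 2 WT libraries had 24.9 and 40.4 per Mb, against 99.6 and 154 per Mb in their arms. The log2 ratio of the pericentromeres over the arms was below 0 in 6 of 6 libraries, with a mean of -1.50 ± 0.74 (SD, n = 6), and a two-sided exact permutation test by sign flips gave p = 0.031, the smallest that 6 libraries allow. The libraries held between 5553946 and 15765419 tags. WT replicate 1 was called at settings that differ from those of the other 5 lists, and it had the fewest peaks of the 4 brm and WT lists.

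The deficit was smaller in both arp6 libraries than in either WT library. The ratio of pericentromeric to arm density was 0.542 and 0.825 in the 2 arp6 libraries, 0.258 and 0.260 in the 2 brm libraries, and 0.25 and 0.263 in the 2 WT libraries. On the log2 scale it averaged -0.58 ± 0.43 in arp6 and -1.96 ± 0.05 in WT (SD, n = 2 each), a difference of 1.38, and the 2 groups did not overlap. A two-sided exact permutation test gave p = 0.33, the smallest that 2 against 2 libraries allow, and a Benjamini-Hochberg adjusted p of 0.89 over the 8 comparisons of this family. In brm the mean was -1.95 ± 0.0069, against -1.96 ± 0.05 in WT, with an exact permutation p of 1.0 and an adjusted p of 1.0. In the pericentromeres alone the groups were closer. Peak density was 23.4 ± 9.1 peaks per Mb in arp6 and 32.7 ± 10.9 per Mb in WT (SD, n = 2 each; exact permutation p = 0.67), with overlapping values. The share of tags in peaks was 6.02% and 5.14% in arp6, 42.5% and 35.3% in brm, and 24.3% and 41.8% in WT, per the file headers. The headers give a fragment length of 164 bp for both arp6 libraries and 414 to 458 bp for the others. The part of these differences in the peak counts was not tested.

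In both arp6 libraries a smaller share of the pericentromeric peaks lay on genes than in either WT library, and a larger share on pseudogenes. A protein-coding gene was overlapped by 33.1% and 27.9% of the pericentromeric arp6 peaks, by 76.4% and 73.1% of those of brm and by 77.2% and 75.6% of those of WT. A pseudogene was overlapped by 38.7% and 37.5% in arp6, 14.0% and 13.6% in brm and 14.9% and 13.3% in WT. The median width of pericentromeric peaks was 501 bp in both arp6 libraries, 804 and 768 bp in brm, and 764 and 884 bp in WT. The part of peak width in these shares was not tested. The 95% Wilson intervals, which cover counting error only, ran for the protein-coding share from 24.4% to 38.3% over the arp6 libraries and from 72.6% to 80.6% over the WT libraries. In the arms the protein-coding share was 94.0% and 86.2% in arp6 and 94.4% and 94.5% in WT. The protein-coding share averaged 30.5 ± 3.7% in arp6 and 76.4 ± 1.1% in WT (SD, n = 2 each), without overlap of the groups (exact permutation p = 0.33, the smallest possible; adjusted p = 0.89). A share of 32.6% and 22.4% of the pericentromeric arp6 peaks overlapped a peak of either WT library, against 85.3% and 70.6% of the arp6 peaks in the arms. For brm, 79.7% and 80.3% of the pericentromeric peaks overlapped a WT peak, against 82.5% and 83.6% of those in the arms. Agreement between the arp6 libraries was low, since 24.7% of the pericentromeric peaks of replicate 1 overlapped one of replicate 2, against 28.4% in the arms, and 15.4% of those of replicate 2 overlapped one of replicate 1, against 24.8% in the arms.

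**Figure D2:**
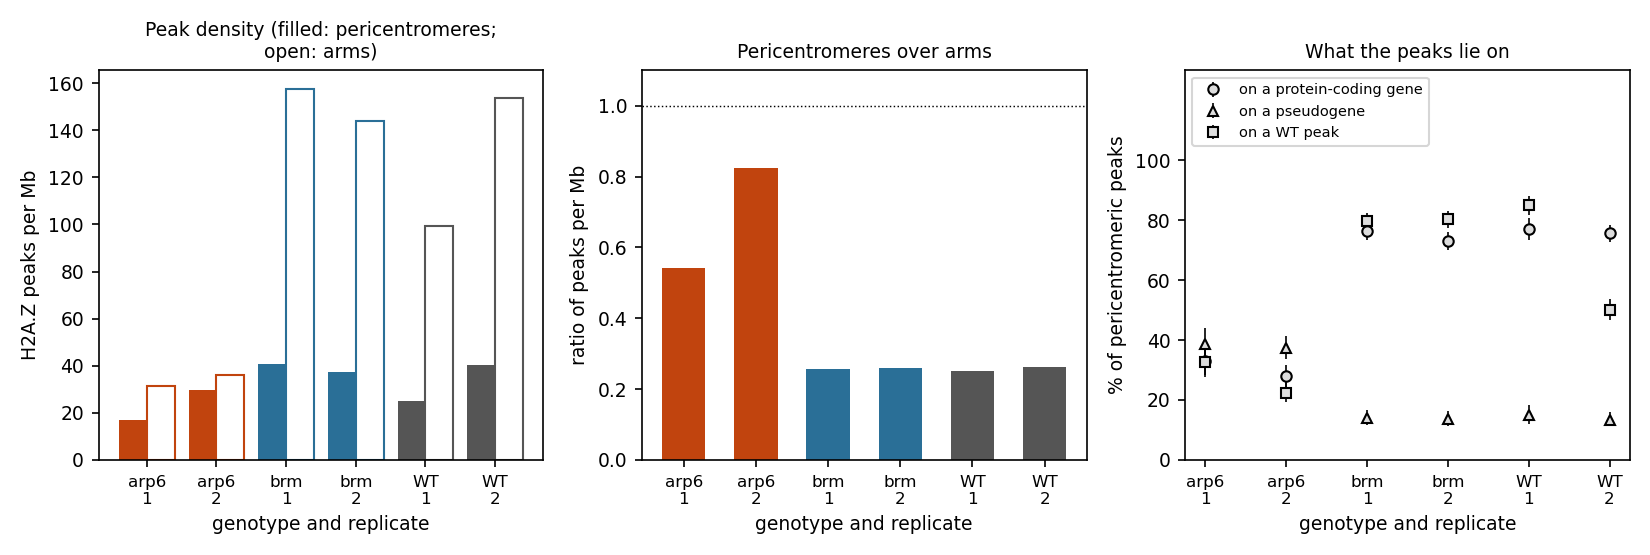
H2A.Z peaks in each of the 6 ChIP libraries (x axis, genotype and replicate). The left panel shows peaks per Mb in the pericentromeres (filled bars) and arms (open bars), the middle panel their ratio with a dotted line at 1, and the right panel the share of pericentromeric peaks (%) on a protein-coding gene, on a pseudogene or on a WT peak, with 95% Wilson intervals; for a WT library the WT peak is one of the other WT library. The 2 arp6 libraries stand apart, with ratios of 0.542 and 0.825, and brm and WT lie between 0.25 and 0.263.

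Few pericentromeric genes overlapped an H2A.Z peak in arp6. Of 1702 pericentromeric protein-coding genes outside deletion calls, 6.52% and 9.75% overlapped a peak in the arp6 libraries, 37.1% and 32.3% in the brm libraries, and 23.3% and 37.4% in the WT libraries. In the arms these shares were 11.3% and 11.6% in arp6, 59.5% and 53.2% in brm, and 36.2% and 58.3% in WT. Pericentromeric genes thus carried a peak less often than arm genes in each of the 6 libraries. The pericentromeric share averaged 8.14 ± 2.3% in arp6 and 30.4 ± 10% in WT (SD, n = 2 each), without overlap of the groups (exact permutation p = 0.33, the smallest possible; adjusted p = 0.89).

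A block of arp6 peaks stood out on chromosome 4. Among windows of 100 kb over the whole genome, the pair at 2900001 to 3000000 and 3000001 to 3100000 had the most sequence under arp6 peaks, in first and second place in both arp6 libraries. The first window had 34.1 and 12.7 kb under peaks in the 2 arp6 libraries, 0.501 kb in each brm library, and none and 0.754 kb in the 2 WT libraries. The second had 19.1 and 12.4 kb in arp6 and no peak in brm or WT. In the pair there were 20 and 27 arp6 peaks, spanning 2919967 to 3082944 in replicate 1 and 2918691 to 3085475 in replicate 2, and the widest was 9859 bp. The windows held 26 pseudogenes and 7 protein-coding genes, and of their genes 2 were listed in the RNA table of arp6. Nucleosome occupancy there was like that of its chromosome, with median log2 fold changes in arp6 of 0.17 in both windows, against 0.17 over all pericentromeric positions of chromosome 4. These windows were picked after their values were seen and carry no test. Without them the log2 ratios of the arp6 libraries were -0.95 and -0.33, against -0.88 and -0.28 with them.

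**Figure D3:**
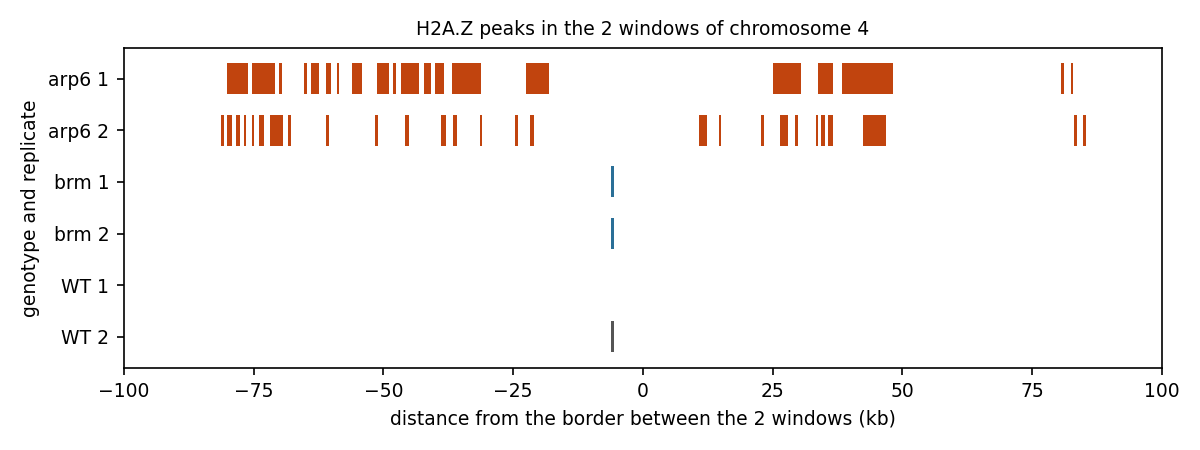
Extent of each H2A.Z peak (bars) in the pair of 100-kb windows on chromosome 4, by distance from their common border (kb), with 1 row per ChIP library. Replicates 1 and 2 of arp6 have 20 and 27 peaks here, while each brm library and WT replicate 2 have 1 and WT replicate 1 has none.

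Occupancy was next compared between each mutant and WT, to ask how loss of H2A.Z deposition and of BRM acts on nucleosomes. The 3 comparisons share the same WT data set, so their values are given side by side. In the authors' deposited tables the log2 fold change at the summit was above 0 at the median of all compartments. The reading therefore rests on the difference between compartments and not on the sign. In arp6 the median was 0.15 in the pericentromeres and 0.17 in the arms. In brm it was 0.16 in the pericentromeres and 0.23 in the arms. In arp6;brm it was 0.22 in the pericentromeres and 0.22 in the arms. The 95% interval of the pericentromeric arp6 median was 0.146 to 0.152 and covers sampling of positions only.

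The gap of brm was the most regular. The pericentromeric minus the arm median was -0.066 on the log2 scale over all positions, and -0.067, -0.060, -0.080, -0.054 and -0.061 on chromosomes 1 to 5. The gap was smaller at equal annotation. Within protein-coding genes the brm median was 0.25 in the pericentromeres and 0.27 in the arms, within pseudogenes 0.20 and 0.23, and at positions in neither 0.11 and 0.14. The gap was thus -0.029, -0.033 and -0.024 within the classes, against -0.066 over all positions. It kept its sign on all 5 chromosomes in each class, but on chromosome 4 it was only -0.0035 within pseudogenes and -0.0022 in neither. By the point log2 fold change, another value of the authors' deposited tables, the pseudogene gap on chromosome 4 was 0.0078. At positions inside WT H2A.Z peaks the brm medians were 0.28 in the pericentromeres and 0.29 in the arms, so pericentromeric nucleosomes in these peaks had values like those of the arms. In arp6 the medians there were 0.22 and 0.20, and in the double mutant 0.27 and 0.26. Such positions were 4.86% of the pericentromeric positions and 18.7% of the arm positions.

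In arp6 and arp6;brm the pattern over classes was another. In arp6 the medians within protein-coding genes were 0.18 in the pericentromeres and 0.20 in the arms, and within pseudogenes 0.18 and 0.16. The pericentromeric minus arm gap within pseudogenes was -0.0014, -0.0058, 0.17, -0.0053 and 0.0087 on chromosomes 1 to 5. It was thus large on chromosome 3 only, where the arm pseudogenes had a median of 0.032. Over all classes, the pericentromeres of chromosomes 2 and 5 were lowest, at 0.097 and 0.13, and those of chromosomes 1, 3 and 4 were at 0.16 to 0.17. In arp6;brm, positions in neither kind of gene had a median of 0.21 in the pericentromeres and 0.17 in the arms, and the pericentromeres were above the arms by 0.046, 0.034, 0.054, 0.033 and 0.017 on chromosomes 1 to 5. In brm alone the same class was below the arms on each chromosome, with a gap of only -0.0022 on chromosome 4. This difference between arp6;brm and brm was not tested, since the tables give no value per library.

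**Figure D4:**
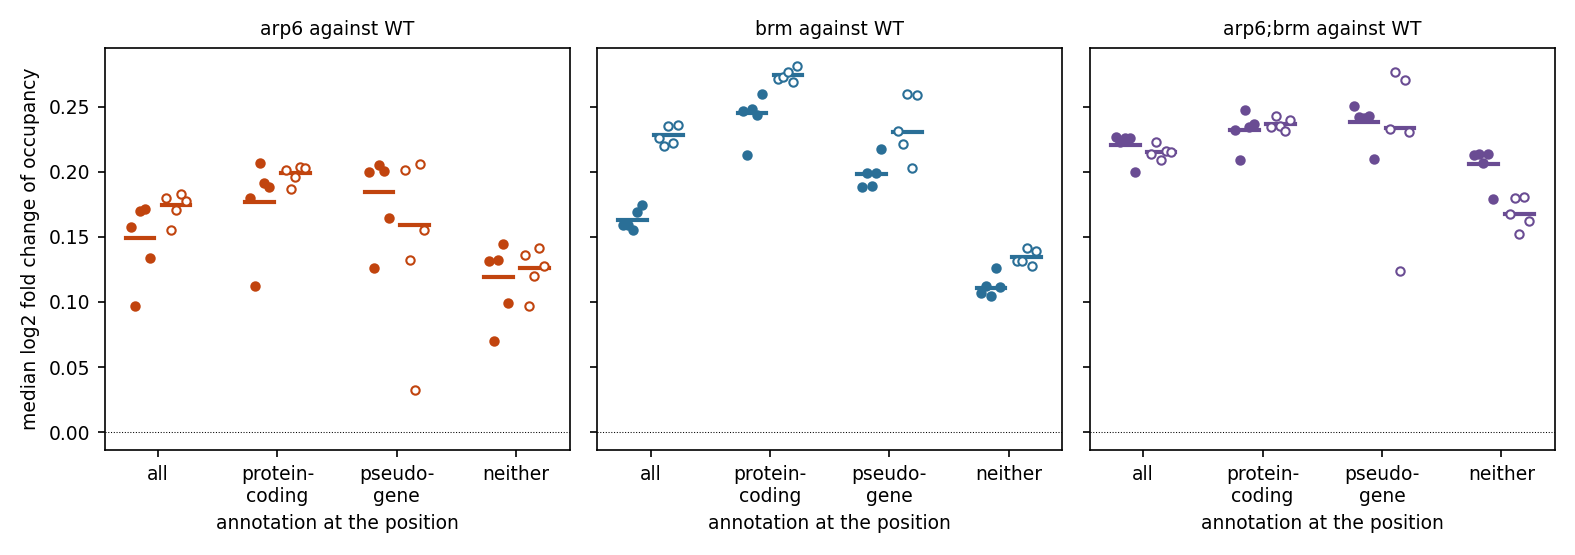
Median log2 fold change of nucleosome occupancy (y axis) in arp6, brm and arp6;brm against WT, by annotation at the position. Lines are medians over all chromosomes and points those of chromosomes 1 to 5 from left to right, with pericentromeres filled and arms open. In brm each filled point lies below the open point of its chromosome in every class, though barely on chromosome 4 in pseudogenes and in neither. In arp6;brm the filled points of positions in neither kind of gene lie above.

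Single positions were called at the authors' FDR below 0.05 and a change of at least 1 on the log2 scale in either direction. In arp6, 4991 pericentromeric positions were called, or 4.15%, against 2.85% of the arm positions and 5.14% of all positions tested, deletions included. Of these, 2055 were higher, or 1.71%, against 0.932% of the arm positions and 1.05% of all positions tested. The other 2936 were lower, or 2.44%, against 1.92% of the arm positions and 4.08% of all positions, which include those in deletion calls. In brm, 4605 were called, or 3.83%, against 4.20% of the arm positions and 4.22% of all positions. Of these, 2254 were higher (1.88%, against 2.70% in the arms and 2.52% of all positions) and 2351 lower (1.96%, against 1.5% in the arms and 1.7% of all positions). In arp6;brm, 4333 were called, or 3.60%, against 3.60% of the arm positions and 4.68% of all positions. Of these, 2724 were higher (2.27%, against 1.86% in the arms and 1.93% of all positions) and 1609 lower (1.34%, against 1.74% in the arms and 2.76% of all positions). In both directions together, the shares of brm and arp6;brm were close to those of the arms.

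The direction of the calls depends on the scale. With the median of the arms taken off each log2 fold change first, higher positions made up 35.9% of the pericentromeric calls in arp6, 25.4% in brm and 48.6% in the double mutant, against 41.2%, 48.9% and 62.9% as deposited. Arm calls in brm moved in the same way, to 40.7% higher, against 64.2% as deposited.

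In arp6 the calls were concentrated on 2 chromosomes. The called shares of pericentromeric positions in arp6 were 2.22%, 8.46%, 2.19%, 2.32% and 6.69% on chromosomes 1 to 5. In brm they were between 3.65% and 4.07% on all 5. In arp6;brm they were 2.67%, 2.48%, 2.64%, 2.79% and 7.64%, so chromosome 5 stood out again and chromosome 2 did not. On chromosome 2 each of the 9 windows of 0.5 Mb had between 4.34% and 14.4% called positions in arp6, and between 2.13% and 3.04% in the double mutant. Deletion calls cover 23.1% and 23.9% of the intervals of chromosomes 2 and 5. They also cover 16.1% of that of chromosome 1, and 2.87% and 2.68% of those of chromosomes 3 and 4. The called share in arp6 was low on these 3 chromosomes. Stretches of more than 1 kb without any position, deletion calls included, came to 502, 148, 51.8, 11.3 and 160 kb on chromosomes 1 to 5. The part of deletions in the called shares was not tested.

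Long runs of lost signal in the pericentromeres lay on the same chromosomes, and such runs were no feature of the pericentromeres alone. Runs of at least 5 neighbouring positions at a log2 fold change of -2 or lower numbered 17 in arp6, with 8 on chromosome 2 and 9 on chromosome 5, and 7 in the double mutant, all on chromosome 5. The arms, with more positions, held 115 in arp6, on all 5 chromosomes, and 111 in the double mutant. None was found in brm in either compartment. Single positions at -2 or lower made up 1.54% of the pericentromeric and 1.18% of the arm positions in arp6, 0.590% and 0.344% in brm, and 0.690% and 0.899% in the double mutant. On chromosome 2, 10 positions from 4733882 to 4735172 had a mean summit signal of 6.40 in arp6, 236.0 in brm and 224.0 in the double mutant, against 193.6 in WT. On chromosome 5, 10 positions from 10672332 to 10674032 had a mean of 4.00 in arp6, 193.3 in brm and 1.78 in the double mutant, against 200.8 in WT. Another run on chromosome 5, of 10 positions from 11370082 to 11371772, was empty in arp6;brm and had 137.1 in arp6 and 220.0 in brm, against 205.6 in WT. Signal near 0 over a kilobase can come from DNA that is absent in the line as well as from lost nucleosomes, and these cannot be told apart in these files.

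Falls in arp6 were more frequent next to deletion calls. Of the pericentromeric positions within 2 kb of one, which were 9.38% of them, 8.24% were called lower in arp6, against 1.84% of those farther away. In arp6;brm these shares were 4.17% and 1.05%, and in brm 2.33% and 1.92%. Called rises in arp6 were as frequent near deletion calls as away from them, at 1.80% and 1.70%. Without the positions within 2 kb, 3.54% of the pericentromeric positions were called in arp6.

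**Figure D5:**
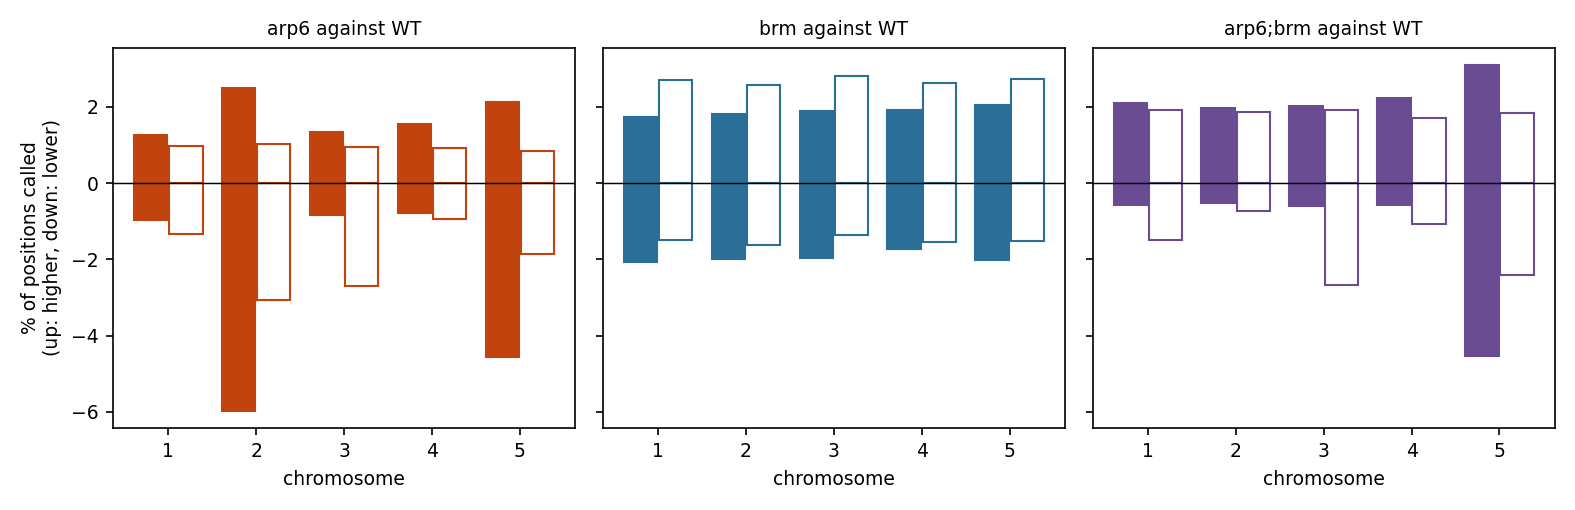
Share of nucleosome positions (%) called higher (bars upward) or lower (bars downward) than in WT on each chromosome, for arp6, brm and arp6;brm, with pericentromeres filled and arms open. Chromosomes 2 and 5 carry the pericentromeric falls of arp6, chromosome 5 those of arp6;brm, and brm is even over the 5 chromosomes.

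Changes of position and fuzziness differed little between the compartments. The summit had moved by at least 50 bp at 16.9% of pericentromeric positions in arp6, 16.6% in brm and 16.2% in the double mutant, against 15.3%, 14.8% and 14.8% in the arms. Within protein-coding genes the 2 compartments were closer, at 15.7% and 15.6% in arp6, while in pseudogenes they were at 18.3% and 16.5%. The median log2 fold change of the fuzziness score in the pericentromeres was -0.0037 in arp6, -0.0057 in brm and -0.0061 in the double mutant, against -0.0043, -0.0098 and -0.0074 in the arms. At the authors' FDR below 0.05, fuzziness was called lower at 4.73% of pericentromeric positions in arp6, against 4.73% in the arms and 4.86% of all positions tested. In brm it was called lower at 4.63%, against 5.75% in the arms and 5.55% of all positions. In the double mutant it was called lower at 5.02%, against 5.66% in the arms and 5.56% of all positions. Fuzziness was called higher at 4.12% of pericentromeric positions in arp6 (arms 3.77%, all positions 3.88%), at 3.34% in brm (arms 3.36%, all positions 3.37%) and at 3.53% in the double mutant (arms 3.75%, all positions 3.75%). Inside WT H2A.Z peaks the median fuzziness score of pericentromeric positions was 55.9 in brm, against 56.6 in WT. In the arms it was 55.6 in brm, against 56.4 in WT.

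Example positions show the range. The least fuzzy well occupied position of chromosome 1, at 12725587 in a pseudogene, had a WT fuzziness score of 34.6 and a summit signal of 440 in arp6, 152 in brm and 236 in the double mutant, against 268 in WT, and none of these changes was called. The least fuzzy positions of chromosomes 2 to 5 lay in neither kind of gene and had WT summit signals of 45484, 2534, 7107 and 3307, so they belong to the very high positions described above. That of chromosome 4, at 3055262, lies in the second of the windows with many arp6 peaks. Among positions with a summit of at least 20 in both groups, the largest called fall in arp6 was at 14197452 on chromosome 3, where the summit signal was 126 in arp6, 17893 in brm and 5349 in the double mutant, against 20611 in WT. The second, at 11316192 on chromosome 5, had 24.0 in arp6, 292 in brm and 38 in the double mutant, against 388 in WT. The largest called fall in arp6;brm, at 14197612, was a neighbour of that position, with 16.0 in arp6, 8135 in brm and 44.0 in the double mutant, against 4070 in WT. The largest called rise in arp6 was at 16260247 on chromosome 3, in a protein-coding gene and a WT H2A.Z peak, with 3781 in arp6, 196 in brm and 192 in the double mutant, against 128 in WT. A rise present in both arp6 lines was at 11187027 on chromosome 5, with 454 in arp6, 24.0 in brm and 556 in the double mutant, against 40.0 in WT. The other large rise in arp6;brm, at 11250667 on chromosome 5, was to 4176 in arp6;brm, against 236 in WT, with 3260 in arp6. The largest called fall in brm was at 16904032 on chromosome 1, with 114 in arp6, 20 in brm and 208 in the double mutant, against 320 in WT. The largest called rise in brm was at 3842752 on chromosome 2, with 320 in arp6 and 334 in brm, against 34.0 in WT. Every one of the named falls and the rises other than that at 16260247 lay in neither kind of gene.

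Nuclear RNA was then examined for the genes of these intervals. At the authors' edgeR adjusted p below 0.05, 93 of 1127 pericentromeric genes were called in arp6, or 8.25%, against 5.78% of arm genes and 6.03% of all genes tested, among them 35 higher (3.01% of all genes were) and 58 lower (3.02% of all genes). In brm, 128 of 1099 were called, or 11.6%, against 13.9% of arm genes and 13.8% of all genes, among them 58 higher (7.62% of all genes) and 70 lower (6.14% of all genes). In arp6;brm, 130 of 1152 were called, or 11.3%, against 13.4% of arm genes and 13.3% of all genes, among them 55 higher (6.16% of all genes) and 75 lower (7.14% of all genes). By chromosome the called share in arp6 was 4.67%, 13.4%, 7.2%, 7.51% and 9.13% on chromosomes 1 to 5. These tables carry no value per library, so no interval is given.

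More pericentromeric pseudogenes were called lower than higher in arp6 and arp6;brm, while in brm only 5 were called. In arp6, 28 of 226 listed ones were called (12.4%, against 6.03% of all genes), 7 of them higher and 21 lower. In the arms 21 of 313 pseudogenes were called in arp6, 11 higher and 10 lower. In brm, 5 of 198 were called (2.53%, against 13.8% of all genes), 1 higher and 4 lower. In the double mutant 26 of 234 were called (11.1%, against 13.3% of all genes), 8 higher and 18 lower. In the arms 15 of 291 were called in brm, 9 higher and 6 lower, and 31 of 335 in the double mutant, 17 higher and 14 lower. These pseudogenes had a median log2 fold change of -0.77 in arp6, -0.36 in brm and 0.23 in the double mutant, and their median log2 CPM was -3.55, -3.53 and -3.64 in these tables, a level at which a few reads decide a fold change. A fall by 5 or more on the log2 scale was called for 17 of 226 pericentromeric pseudogenes in arp6, 2 of 198 in brm and 14 of 234 in the double mutant. Rises of that size were called for 5, 1 and 4 of them. In the arms, falls of that size were called for 4 of 313, 1 of 291 and 7 of 335 pseudogenes, and rises for 4, 0 and 6. A fall by 5 or more was called in arp6 for 29 of 1127 pericentromeric genes of any kind, against 57 of 20668 arm genes. Rises of that size were called for 11 of the pericentromeric and 43 of the arm genes. Over the 29 genes with such a fall, the pooled median summit signal was 209 in arp6, against 201 in WT. Of their 410 positions, 1.22% were at a log2 fold change of -2 or lower. That share was 1.76% over genes with other called falls, 1.39% over genes called higher and 0.815% over genes not called. The 29 genes were not examined singly.

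Some of the genes with the largest changes were shared by arp6 and arp6;brm. Of those of brm, only QQS was also among the largest changes of another mutant, arp6;brm. Extreme log2 fold changes depend on the authors' prior count where a group has few reads. In the authors' deposited table of arp6 the pseudogene AT4G08110 had a log2 fold change of -11.92 (adjusted p = 2.196e-76), and in that of arp6;brm -11.70 (adjusted p = 3.392e-79), while in that of brm it had 0.35 (adjusted p = 0.3194). AT5G28919, a protein-coding gene of chromosome 5, followed the same pattern in the authors' deposited tables, with -10.43 in arp6, 0.07 in brm and -12.01 in the double mutant. The pseudogene AT5G35935 did so too, with -10.06 in arp6, -0.26 in brm and -11.65 in the double mutant in the authors' deposited tables. Of 2 further falls in arp6, the pseudogene AT1G35612 had -10.93 in arp6, 0.63 in brm and -0.78 in the double mutant, and the pseudogene AT2G13970 on chromosome 2 had -10.52 in arp6, -0.52 in brm and -0.36 in the double mutant, in the authors' deposited tables. The largest rise in arp6 was that of AT2G05914, a gene of chromosome 2 that is not protein-coding, with a log2 fold change of 7.69 in arp6, 0.19 in brm and 0.68 in the double mutant in the authors' deposited tables. The pseudogene AT5G34851 rose in both arp6 lines, with 4.73 in arp6 and 5.15 in the double mutant, against 1.40 in brm, where it was not called in the authors' deposited table.

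Genes with named functions led the changes of brm. XTH31, a xyloglucan-modifying enzyme of the cell wall, had the largest fall of brm, with -1.49 in arp6, -5.34 in brm and -1.20 in the double mutant in the authors' deposited tables, each called. DYW1, which acts in RNA editing in chloroplasts, had -0.34 in arp6, -4.22 in brm and -3.23 in the double mutant in the authors' deposited tables, and was called in brm and arp6;brm. ACC2, a chloroplast acetyl-CoA carboxylase, was called in brm with -2.22 in the authors' deposited table. QQS, which affects the allocation of carbon to starch and protein, was lower in all 3 mutants, with -5.45 in arp6, -2.12 in brm and -8.59 in the double mutant in the authors' deposited tables. Among the rises of brm, FAMT, a methyltransferase of farnesoic acid, had 4.80, the ERF transcription factor gene RAP2.6 had 4.25, AT1G34420 had 3.32 and the receptor-like protein gene RLP46 had 3.29 in the authors' deposited table. RAP2.6 was called lower in arp6, with a log2 fold change of -8.49 at an average log2 CPM of -0.74 in the authors' deposited table. The ERF factor gene RAP2.9 rose in all 3 mutants, with 1.71 in arp6, 2.95 in brm and 1.99 in the double mutant in the authors' deposited tables. AT1G47395 rose with 1.83 in arp6 and 2.65 in the double mutant, and its neighbour by locus number AT1G47400 with 3.01 in arp6;brm, as did AT3G29644 with 2.43, in the authors' deposited tables.

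The genes that make and keep heterochromatin were examined as a list of 22. It held DNA methyltransferases and their partners (MET1, CMT2, CMT3, DRM2, DDM1), histone methyltransferases (SUVH4, SUVH5, SUVH6, ATXR5, ATXR6), the silencing factor MOM1, histones (CENH3, H1.1, H1.2 and the H2A.W genes HTA6, HTA7, HTA12) and genes of RNA-directed DNA methylation (NRPD1, NRPE1, RDR2, DCL3, AGO4). By the authors' deposited tables, the calls among the 22 were 2 in arp6 (1 higher, 1 lower), 4 in brm (all lower) and 4 in the double mutant (1 higher, 3 lower). These are 9.09%, 18.2% and 18.2% of the list, against 6.03%, 13.8% and 13.3% of all genes, a difference of about 1 gene in each mutant. The 22 had a median log2 fold change of -0.031 in arp6, -0.43 in brm and -0.15 in the double mutant, against -0.018, -0.018 and 0.0047 over all genes.

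The called genes of the list were as follows. H2A.W genes, which encode the variant that marks Arabidopsis heterochromatin, were 3 of the 4 called in brm. In the authors' deposited table of brm HTA6 had a log2 fold change of -0.88 (adjusted p = 0.0004273), HTA7 -0.72 (adjusted p = 0.01187) and HTA12 -1.59 (adjusted p = 0.00514). HTA12 was lower in the other mutants too, with -1.31 in arp6 (adjusted p = 0.008424) and -1.06 in the double mutant (adjusted p = 0.01369) in the authors' deposited tables. HTA6 and HTA7 were not called there, and the authors' deposited tables gave HTA6 0.0059 and HTA7 -0.48 in arp6, and HTA6 -0.29 and HTA7 -0.31 in the double mutant. The fourth call of brm was ATXR6, which places a single methyl group on lysine 27 of histone H3, with -1.98 (adjusted p = 0.02604) in the authors' deposited table. NRPE1, the largest subunit of RNA polymerase V, rose with 1.09 in arp6 (adjusted p = 6.48e-05) and 0.91 in the double mutant (adjusted p = 5.057e-05), and had -0.32 in brm (adjusted p = 0.6136), in the authors' deposited tables. In arp6;brm, SUVH5, a methyltransferase of lysine 9 of histone H3, fell with -2.11 (adjusted p = 0.00837) and the linker histone gene H1.1 with -0.46 (adjusted p = 0.03171) in the authors' deposited table. None of the 22 genes was called higher in brm.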

How the data were processed

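The authors deposited 3 nucleosome tables, 6 H2A.Z peak lists, 3 gene tables and 1 list of deletions. The authors used, per the submitters' processing notes, Bowtie2, SAMtools, HOMER, TopHat2, HTSeq, edgeR and BWA, with the build TAIR10, and no versions or roles are given. MNase fragments were selected by size at a limit of 400 bp, per the labels. The nucleosome tables give, per the file headers, a summit signal and a fuzziness score for the pooled mutant and WT data, and the authors' log2 fold changes and FDR (adjusted p-values). The log2 of mutant over WT summit signal, as deposited, came within 0.01 of the authors' own summit value for 45.0%, 44.7% and 44.6% of pericentromeric positions in arp6, brm and arp6;brm. How the summit value was made is not given in the sources used here. Peaks were called per library with HOMER against input, per the file headers, with an FDR of 0.01 in 5 lists and a Poisson threshold in WT replicate 1. The gene tables hold the authors' edgeR log2 fold change, average log2 CPM and adjusted p-value, as deposited. Rows that name no gene were left out. The depth of MNase and RNA libraries is unknown.

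Positions and peaks were placed by their centre. Gene positions came from RefSeq (TAIR10.1). WT signal around gene ends was lowest at an offset of 0 bp on all 10 chromosome arms, so these positions were used with the files' coordinates. Of the genes, 22014 of 22046, 21893 of 21925 and 22318 of 22352 matched in arp6, brm and arp6;brm. No genome sequence was used. Peak densities were compared by two-sided exact permutation over libraries, with Benjamini-Hochberg adjustment over 8 comparisons. Overlap meant at least 1 bp. Code was tested on simulated data. Python 3.11.15, pandas 2.3.3, NumPy 2.4.6, SciPy 1.17.1, statsmodels 0.14.6 and matplotlib 3.10.9 were used. Named genes were, per mutant, the 4 largest rises and 4 largest falls among called pericentromeric genes above a log2 CPM minimum of 1, and the called genes of the list of 22. Example positions were the least fuzzy member of each chromosome with a WT summit at or above its median, and per mutant the 2 largest called rises and 2 largest called falls with both summits at 20 or more, of which some are printed. Members and lists were chosen with earlier results of these data known. The alternatives tried are given in the closing section.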

Additional observations from a re-analysis of the deposited data

How the results depend on the processing

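Of 209 values under alternative settings, 163 kept their sign and either their side of the test, a count within 1.5 times or the 95% interval of the reported value, 37 moved beyond that, 6 lost the threshold and 3 changed sign. Small differences can move by more than 1.5 times inside their interval. The H2A.Z differences between a mutant and WT, with at most 2 libraries a group, cannot reach p below 0.05 at any setting. For them only a change of sign could count as a change, whatever the size of the difference. Leaving out 1 chromosome gave 0.42 (without chromosome 3) to 0.83 bp for the spacing difference, against 0.64 bp as reported, and 0.00023 (without chromosome 3) to 0.00097 (without chromosome 2) for the fuzziness change of arp6, against 0.00057, with 0.0011 when deletion calls were kept. With the borders of each interval narrowed and widened by 0.5 Mb, the WT fuzziness difference was 0.438 and 0.351, arp6 occupancy -0.019 and -0.032, the brm difference in moved summits 2.05 and 1.51 points, and in arp6;brm occupancy 0.0044 and 0.0017 and moved summits 1.56 and 1.14 points. Called genes, whose number follows the size of the intervals, were 57 and 134 in arp6, 66 and 196 in brm and 74 and 211 in arp6;brm. The arp6 minus WT difference in the H2A.Z log2 ratio was 2.01 and 0.98 (exact permutation p = 0.33 in both), and the mean over 6 libraries -1.85 and -1.23 (exact permutation p = 0.031 in both). With deletion calls kept in the intervals and arms, the pericentromeric minus arm difference was 0.363 for WT fuzziness, -0.060 for log2 occupancy in arp6 and -0.0084 in arp6;brm (0.0057 as reported, so the sign changed), and 1.23 and 1.02 percentage points for moved summits in arp6 and arp6;brm. The called share rose to 9.81% in arp6 and 6.32% in arp6;brm. Leaving out 1 chromosome in turn gave -0.033 (without chromosome 3) to -0.019 (without chromosome 2) for arp6 occupancy, -0.068 to -0.061 for brm and 0.0022 (without chromosome 3) to 0.010 (without chromosome 5) for arp6;brm, against 0.0057. Without positions within 2 kb of a deletion call, an alternative chosen after seeing the data, the arp6 difference was -0.021. With neighbours up to 500 bp apart the spacing difference was 1.48 bp. At an FDR below 0.01 the called shares were 0.291% in arp6, 0.996% in brm and 0.260% in the double mutant. Counting summit moves of at least 30 bp gave differences of 0.837, 0.914 and 0.506 percentage points in the same order. The brm minus WT difference in the H2A.Z log2 ratio was 0.012 as reported, -0.081 by base pairs under peaks (exact permutation p = 0.33), 0.037 and 0.021 with narrowed and widened borders, and -0.024 to 0.048 without 1 WT replicate, so it has no stable sign. Without 1 library, the mean log2 ratio over the remaining libraries lay between -1.74 and -1.40 with an exact permutation p of 0.0625, the smallest that 5 libraries allow. Pericentromeric gene calls numbered 156, 220 and 249 in arp6, brm and arp6;brm at an adjusted p below 0.2, 49 in arp6 above a log2 CPM of 1, and 75 in brm and 80 in arp6;brm with a change of at least 1 on the log2 scale. Replicate numbers of the ChIP libraries are no stated pairing. Their deviations over windows of 1 Mb correlated at 0.37 between arp6 and WT and at -0.56 between brm and WT. With the number as a replicate block the H2A.Z differences were 1.38 (exact permutation p = 0.5) and 0.012 (p = 1.0). The alternative restricted to uniquely mapping 76-mers was not run, since no genome sequence was used. The causes of these shifts were not tested. Pooled MNase data, 2 ChIP libraries per genotype and gene tables without values per library limit precision.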
